A study of Mus musculus with 59 samples.

Results

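Spleens taken after a single dose of baclofen were compared with spleens taken after a single dose of its vehicle. The comparison holds 8 of the 59 arrays of the series, 4 with baclofen and 4 with vehicle, chosen by their titles. All animals were B6C3F1 mice, a first-generation cross of the C57BL/6 and C3H inbred strains used widely in toxicology. The control animals received 0.5% methylcellulose, and tissue was taken 2 hours after the dose in both groups. The dose of baclofen and the age and sex of the mice are not given in the sources used here. RNA from a piece of spleen cut across the organ was put on Affymetrix mouse arrays, 1 sample an array. The labels do not say whether the replicates were separate animals, so the p-values measure the spread between replicate samples, which may be technical. Beside them stand 12 spleen arrays after 5 daily doses (8 baclofen, 4 vehicle), 8 bone marrow arrays and 7 liver arrays after 1 dose.

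Baclofen activates the GABA-B receptor, which is G protein-coupled, made of the subunits Gabbr1 and Gabbr2 and linked to inhibitory G proteins. The rodent spleen joins lymphoid white pulp, where B and T lymphocytes sit in follicles and sheaths, to a red pulp that filters blood, stores monocytes and makes red cells and granulocytes. Glucocorticoids reach all of these cells and act through the receptor Nr3c1, which induces genes such as Tsc22d3, Fkbp5 and Per1 within hours. Heat shock proteins fold other proteins, and their genes follow the transcription factor Hsf1. Cirbp encodes an RNA-binding protein named for its induction by mild cold.

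The promoters of the 4 genes with the largest rises are shown because these genes lead the results. Each sequence is a RefSeq window on GRCm38.p6, running from 250 bases before the gene's start to 50 bases after it, on the gene's own strand. The windows lie at chr10:80167589-80167888 (plus strand) for Cirbp, chr10:59951721-59952020 (minus) for Ddit4, chr4:150854820-150855119 (plus) for Errfi1 and chr6:5496229-5496528 (minus) for Pdk4. Capitals mark a match to any of 4 motifs searched on both strands: AGAACA, to which the glucocorticoid receptor binds, the cAMP response element TGACGTCA, the E-box CACGTG and the heat shock motif GAANNTTC.
Cirbp: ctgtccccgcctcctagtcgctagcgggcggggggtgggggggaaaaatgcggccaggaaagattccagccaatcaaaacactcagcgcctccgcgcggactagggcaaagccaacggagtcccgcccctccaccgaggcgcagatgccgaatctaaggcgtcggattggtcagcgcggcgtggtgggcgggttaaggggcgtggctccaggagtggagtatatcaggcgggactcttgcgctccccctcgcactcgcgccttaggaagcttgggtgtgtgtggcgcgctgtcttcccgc
Ddit4: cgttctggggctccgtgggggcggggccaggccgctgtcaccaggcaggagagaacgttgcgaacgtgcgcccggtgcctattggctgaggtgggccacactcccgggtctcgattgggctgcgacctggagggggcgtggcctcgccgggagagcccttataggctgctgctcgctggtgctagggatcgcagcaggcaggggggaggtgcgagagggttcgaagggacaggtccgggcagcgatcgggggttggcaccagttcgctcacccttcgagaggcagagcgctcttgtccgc
Errfi1: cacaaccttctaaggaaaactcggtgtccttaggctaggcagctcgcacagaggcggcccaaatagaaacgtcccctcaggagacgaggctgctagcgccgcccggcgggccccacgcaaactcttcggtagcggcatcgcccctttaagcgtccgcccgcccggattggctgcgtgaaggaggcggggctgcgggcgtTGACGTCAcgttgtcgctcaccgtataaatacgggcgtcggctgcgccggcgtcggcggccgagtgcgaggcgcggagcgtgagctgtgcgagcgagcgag
Pdk4: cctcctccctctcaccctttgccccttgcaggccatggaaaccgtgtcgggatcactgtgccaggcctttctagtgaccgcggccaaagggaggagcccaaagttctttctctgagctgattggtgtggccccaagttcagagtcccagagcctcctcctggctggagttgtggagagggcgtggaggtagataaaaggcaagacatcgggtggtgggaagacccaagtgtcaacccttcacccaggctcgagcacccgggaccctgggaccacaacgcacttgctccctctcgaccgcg
The only match was a TGACGTCA that begins at base 200 of the Errfi1 window. Cirbp and Errfi1 each have 2 listed windows. Window 1 is shown for Cirbp and window 2, the one with the match, for Errfi1. The windows not shown held none. Among all 32851 RefSeq promoter windows of 300 bases, AGAACA was present in 19%, TGACGTCA in 1.79%, CACGTG in 7.15% and GAANNTTC in 7.86%. A match is only a run of letters, and its absence says nothing about a factor's binding elsewhere.

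The 8 arrays resembled each other closely, with correlations over all probe sets between 0.979 and 0.9966 and median intensities between 74.9 and 77.6. The difference between the 3' and 5' control probe sets, a measure of RNA integrity, spanned 0.29 to 0.42 in the vehicle arrays and 0.34 to 0.39 in the baclofen arrays. Transcripts of hepatocytes, pancreatic acinar cells and adipocytes were low on all 8, with mean log2 levels no higher than 5.61, 5.59 and 6.3. The vehicle arrays differed among themselves in cell content. Their mean log2 level of the erythroid genes was 11.39, 10.77, 9.16 and 10.61 in replicates 1 to 4, against 9.58, 10.28, 9.8 and 9.78 in the baclofen arrays. Vehicle replicate 1 was thus highest and vehicle replicate 3 lowest of all 8, and the baclofen arrays lay between them.

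Of 10916 genes tested with limma, 1697 (15.5%) differed at an adjusted p under 0.05, 834 (7.64%) higher and 863 (7.91%) lower after baclofen. The median over all tested genes was -0.025 on the log2 scale. The number of calls depended on single arrays. It was 952 without baclofen replicate 1, 1002 without baclofen replicate 4 and 1005 without vehicle replicate 1, and it was 3050 without vehicle replicate 3. The fit took its spread from all 20 spleen arrays, and with only the 1-day arrays fitted the number of calls was 676. Of 121 called genes named in this text, some of them added outside the naming rule, 50 lost the call with only the 1-day arrays fitted. Without vehicle replicates 1 and 3 together, a setting added after the data were seen, 46 lost it. Counts of members of each list below stand against the shares of all genes given here. All log2 values below are differences of baclofen minus vehicle with the standard error of the fit, and "rose" or "fell" is used only for genes past that threshold.

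The largest rises were those of Cirbp, of Ddit4, a stress-induced inhibitor of mTORC1, of Errfi1, a feedback inhibitor of the EGF receptor, and of Pdk4, the kinase that shuts off pyruvate dehydrogenase. Cirbp stood at 8.37, 8.17, 7.88 and 7.93 in the vehicle arrays and at 10.69, 10.51, 10.16 and 10.75 in the baclofen arrays. The groups lay well apart, and the rise was 2.44 ± 0.24, or 5.43-fold (adjusted p = 5.42e-05, limma). Ddit4 was at 8.57, 9.16, 8.69 and 9.27 with vehicle and at 11.23, 11.4, 11.47 and 10.46 with baclofen, a rise of 2.22 ± 0.31 (adjusted p = 0.0003, limma). Errfi1 was at 7.81, 9.4, 8.6 and 8.51 with vehicle and at 10.92, 10.64, 10.22 and 11.08 with baclofen (2.13 ± 0.28, adjusted p = 0.00021). Every baclofen array was above every vehicle array for all of these genes. Pdk4 varied most among the vehicle arrays, at 6.69, 8.76, 7.73 and 7.27, and was at 9.79, 9.63, 9.29 and 9.77 with baclofen (2.01 ± 0.36, adjusted p = 0.00148). Each of these calls held with any single array of the 8 left out.

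**Figure D1:**
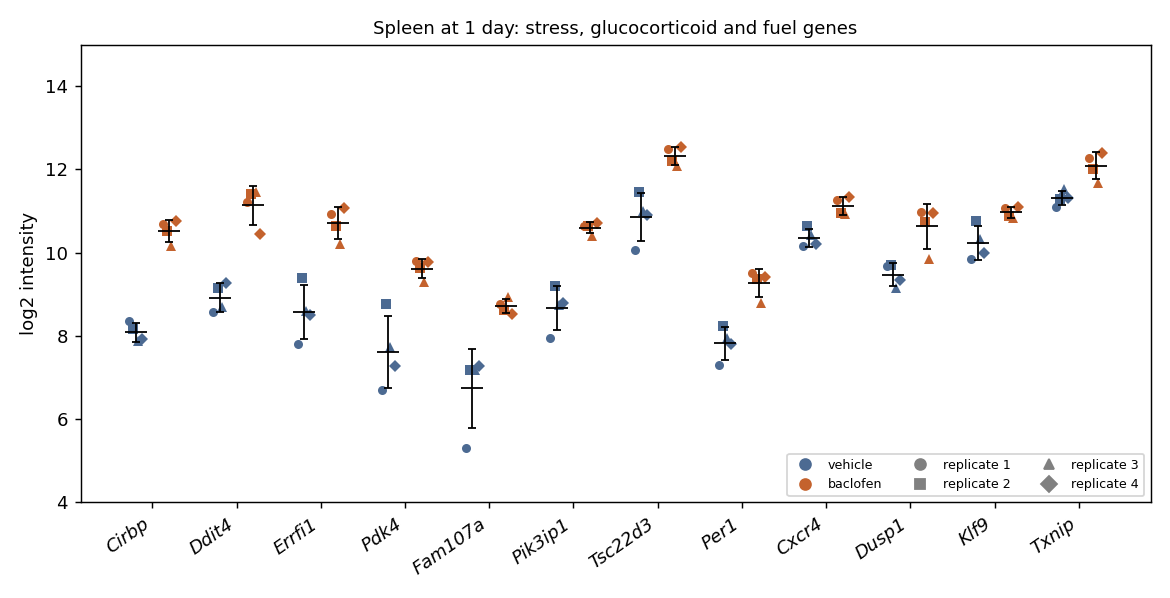
Log2 intensity of 12 genes that rose in spleen 2 hours after 1 baclofen dose, 1 point per array with the replicate number as the marker shape. Black dashes and bars are the mean and SD of 4 arrays. For each gene the 4 baclofen points lie above the 4 vehicle points, with Cirbp between 10.16 and 10.75 against 7.88 to 8.37.

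The other large rises mixed lymphocyte regulators with genes less often studied in spleen. Fam107a, a gene induced by stress hormones, was at 5.3, 7.19, 7.19 and 7.27 with vehicle and at 8.77, 8.63, 8.93 and 8.53 with baclofen (1.97 ± 0.33, adjusted p = 0.000897). Its lowest value belonged to vehicle replicate 1, and the rise passed the test without that array too. Pik3ip1 encodes a membrane protein that restrains PI3-kinase and rose by 1.94 ± 0.22 (adjusted p = 0.000128), and its baclofen arrays were within 10.41 to 10.71 against 7.94 to 9.19 with vehicle. Ptpn22, a phosphatase that restrains antigen receptor signalling, rose by 1.51 ± 0.20 (adjusted p = 0.00021). Tespa1, which takes part in T cell receptor signalling, rose by 1.46 ± 0.22 and Dusp2, a MAP kinase phosphatase of lymphocytes, by 1.43 ± 0.17. Mybpc2, a myosin-binding protein of muscle, was at 5.6, 5.85, 5.91 and 5.73 with vehicle and at 7.55, 7.24, 6.88 and 7.44 with baclofen (adjusted p = 0.000128). Its vehicle arrays all lay under the brightness minimum, a mean log2 level of 6.31 over the 20 spleen arrays, so no size is given for its rise. Hs3st1, a heparan sulfate sulfotransferase, Pex11a, a peroxisomal membrane protein, and Vmn2r84, annotated as a vomeronasal receptor, rose by 1.42 ± 0.22, 1.41 ± 0.20 and 1.37 ± 0.28. All of these kept the call with any single array left out.

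Pcdh18, a protocadherin, fell. It was at 7.72, 6.99, 7.43 and 6.94 with vehicle and at 5.45, 5.37, 5.13 and 5.84 with baclofen (adjusted p = 0.00061), and its 3 probe sets fell. Its baclofen arrays all lay under that minimum of 6.31, so no size is given for its fall. Id4, an inhibitor of helix-loop-helix factors, fell by 1.25 ± 0.26 on the log2 scale (adjusted p = 0.00351), though 1 of its 3 probe sets was called. Ccnb1ip1, a ubiquitin ligase that acts on cyclin B, fell by 1.20 ± 0.24 (adjusted p = 0.00304). Tardbp, the RNA-binding protein TDP-43, fell by 1.01 ± 0.15 on its brightest probe set (adjusted p = 0.00047), but of its 5 probe sets 3 fell and 1 rose. These 4 calls held with any single array left out, and that of Id4 was lost without vehicle replicates 1 and 3 together (0.0579). Most of the other large falls belonged to myeloid cells and are described with their markers.

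**Figure D2:**
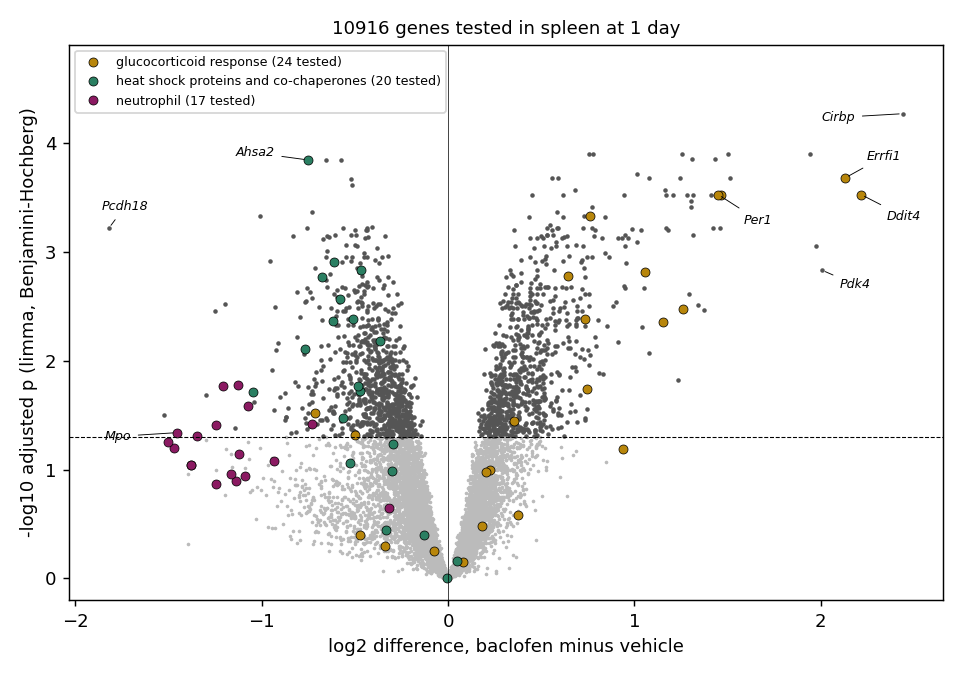
Each point is 1 of the 10916 genes tested in spleen, with the log2 difference of baclofen minus vehicle against -log10 of the adjusted p from limma. Grey points lie below the dashed line at an adjusted p of 0.05. The 24 glucocorticoid genes sit mostly to the right, the 20 heat shock genes mostly to the left, and the 17 neutrophil genes far to the left around the line.

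Of 24 tested genes that respond to glucocorticoids, 12 rose and 2 fell, with a median difference of 0.51 beside -0.025 over all genes. Of all genes, 7.64% were called up. The mean log2 level of the list was 9.06, 9.73, 9.18 and 9.22 with vehicle and 9.88, 9.8, 9.66 and 9.85 with baclofen. Vehicle replicate 2 thus lay inside the baclofen range. Several members appear above (Ddit4, Errfi1). Tsc22d3, which encodes the glucocorticoid-induced leucine zipper, was at 10.07, 11.46, 11.01 and 10.91 with vehicle and at 12.5, 12.2, 12.09 and 12.53 with baclofen (1.47 ± 0.21, adjusted p = 0.0003). The groups did not overlap, although vehicle replicate 2 came within a log2 unit of the baclofen arrays. Per1, a clock gene with a glucocorticoid response element, was at 7.3, 8.23, 7.95 and 7.81 with vehicle and at 9.52, 9.37, 8.79 and 9.41 with baclofen (1.45 ± 0.20, adjusted p = 0.0003). Fkbp5, a co-chaperone that feeds back on the receptor, was at 8.89, 10.78, 9.68 and 9.96 with vehicle and at 10.99, 11.17, 11.31 and 10.91 with baclofen (1.26 ± 0.26, adjusted p = 0.00337). Here vehicle replicate 2 nearly reached the baclofen range, and the call was lost with only the 1-day arrays fitted (0.0543).

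Il7r, the receptor for interleukin 7, rose by 1.06 ± 0.19 (adjusted p = 0.00153) and Cxcr4, the chemokine receptor that holds cells near CXCL12, by 0.76 ± 0.11 (adjusted p = 0.00047). Cxcr4 lay between 10.15 and 10.64 in the vehicle arrays and between 10.92 and 11.34 in the baclofen arrays. Sgk1, a kinase that regulates sodium channels, rose by 0.64 ± 0.12 and Klf9, a transcription factor, by 0.74 ± 0.15. Dusp1, a phosphatase that shuts off p38 and JNK, rose by 1.15 ± 0.25 (adjusted p = 0.00441). Rhob, a small GTPase, rose by 0.74 ± 0.20, a call lost without baclofen replicate 1 (adjusted p = 0.0665), baclofen replicate 4 (0.0596) or vehicle replicate 1 (0.0604). The remaining rise, that of Nfkbia, an inhibitor of NF-kB (0.35 ± 0.11, adjusted p = 0.0355), was lost without any of 6 arrays, baclofen 1, 2 and 4 and vehicle 1, 2 and 4 (adjusted p from 0.0512 to 0.13). Anxa1, an anti-inflammatory protein that myeloid cells hold in quantity, fell by 0.71 ± 0.21 (adjusted p = 0.0303), and Bcl6, a repressor of germinal centre B cells, fell by 0.50 ± 0.17 (adjusted p = 0.0486). The call of Anxa1 was lost without baclofen 1, 2 or 3 or vehicle 1 or 2 (adjusted p from 0.061 to 0.102) and that of Bcl6 without baclofen 1, 2 or 4 or vehicle 2, 3 or 4 (0.0767 to 0.132). The receptor gene Nr3c1 itself differed by -0.07 ± 0.08 and did not pass. Zbtb16, a further target, was at 7.04, 9.08, 8.52 and 8.2 with vehicle and at 9.05, 8.97, 9.37 and 9.2 with baclofen, so the groups overlapped and the difference of 0.94 ± 0.34 did not pass (adjusted p = 0.0649). The low value of vehicle replicate 1 recurs across the list: it held the lowest level of Tsc22d3, Per1, Fkbp5, Il7r, Klf9 and Zbtb16. Without that array 10 members rose and 1 fell, and without baclofen 1, baclofen 2 or vehicle 2 the falls numbered 0.

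MAP kinase regulators and Kruppel-like factors shared members with that list. Of 16 MAP kinase regulators, most of them phosphatases or feedback inhibitors, 6 rose and 0 fell, with a median of 0.21, beside 7.64% and 7.91% of all genes. Beside Dusp1, Dusp2 and Errfi1 these were Dusp16 (0.50 ± 0.11, adjusted p = 0.00542), Dusp10 (0.50 ± 0.12, adjusted p = 0.0119) and Gadd45g, a stress-induced activator of MAP kinase signalling (0.43 ± 0.12, adjusted p = 0.0182). Dusp16 lost the call with only the 1-day arrays fitted (adjusted p = 0.0528), Dusp10 without baclofen replicate 1 (0.0501), and Gadd45g without baclofen 1, baclofen 4 or vehicle 1 (0.0506 to 0.0579). Of 13 Kruppel-like factors 4 rose and 0 fell. Klf15, a factor of amino acid and lipid metabolism, was at 5.77, 6.74, 6.36 and 6.57 with vehicle and at 7.72, 7.84, 7.5 and 7.64 with baclofen (1.31 ± 0.18, adjusted p = 0.0003). All 4 baclofen arrays lay above all vehicle arrays. Klf13, which acts in T lymphocytes, rose by 0.47 ± 0.09 (adjusted p = 0.00294). Klf7 rose by 0.43 ± 0.14 (adjusted p = 0.0423), a call that only the array set without vehicle replicate 3 kept (adjusted p from 0.0543 to 0.122 in the 7 others). Without vehicle replicate 3, 7 Kruppel-like factors rose and 2 fell.

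Of 15 genes of the cAMP and CREB response, 4 rose and 0 fell: Per1, Dusp1, Pde3b and Sik1. Pde3b, a phosphodiesterase that breaks down cAMP, was at 9.11, 9.32, 9.8 and 9.24 with vehicle and at 10.65, 10.06, 10.11 and 10.43 with baclofen (0.95 ± 0.15, adjusted p = 0.000697). Sik1, a kinase that CREB induces, rose by 0.74 ± 0.22, with baclofen replicates 1 and 4 high at 7.54 and 7.59 and the others, at 6.86 and 6.69, close to the vehicle range of 6.07 to 6.71. Its call (adjusted p = 0.0278) was lost without baclofen 1, baclofen 4, vehicle 1 or vehicle 4 (0.0703 to 0.0996). Among 16 clock genes Per1 alone was called (4 were without vehicle replicate 3). Among 21 immediate early genes none rose and Ier3, a survival gene, fell by 0.42 ± 0.12 (adjusted p = 0.0274). That call was lost without any of baclofen 1 to 4, vehicle 1 or vehicle 2 (0.0517 to 0.0828). Leaving out vehicle replicate 3 gave 4 rises and 1 fall among the immediate early genes. The median of that list was -0.012 and turned to 0.052 with quantile normalization.

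Of 20 heat shock proteins and co-chaperones, 13 fell and 0 rose, beside 7.91% of all genes called down. The median was -0.5, and in 14 of the 20 all baclofen arrays lay below all vehicle arrays, against 8.9% of all genes. Ahsa2, an activator of the Hsp90 ATPase, was at 9.03, 8.91, 9.12 and 9.08 with vehicle and at 8.29, 8.35, 8.27 and 8.22 with baclofen (-0.75 ± 0.09, adjusted p = 0.000144). Both groups were tight. Dnaja1, an Hsp40 co-chaperone, was at 10.92, 11.05, 11.41 and 11.07 with vehicle and at 10.54, 10.53, 10.54 and 10.4 with baclofen (-0.61 ± 0.11, adjusted p = 0.00125). Hspa8, the constitutive Hsc70, was at 13.43, 13.55, 13.69 and 13.57 with vehicle and at 13.15, 13.14, 13.04 and 13.04 with baclofen (-0.47 ± 0.08, adjusted p = 0.00148). The co-chaperones of Hsp90 Chordc1 and Stip1 fell by 0.68 ± 0.12 and 0.58 ± 0.11 on the log2 scale. Hspa1b, the inducible Hsp70, had the widest spread, at 8.6, 9.66, 9.58 and 8.2 with vehicle and 8.23, 7.71, 7.62 and 8.28 with baclofen. Its arrays overlapped, and its fall of 1.05 ± 0.29 (adjusted p = 0.0195) was lost without baclofen 2 or 3 or vehicle 2 (0.0508 to 0.0726). The number of members that fell was between 10 and 15 with single arrays left out. It was 14 with the erythroid level as a covariate and 7 with vehicle replicates 1 and 3 both left out, settings added after the data were seen.

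Cirbp was alone in its own list. Of 16 genes of the cold response and of temperature-sensitive splicing, 1 rose and 5 fell, with a median of -0.13. The 5 were splicing factors or their relatives, and their sizes were small. Srsf1 was at 12.44, 12.37, 12.28 and 12.43 with vehicle and at 11.89, 12.06, 12.22 and 11.99 with baclofen (-0.34 ± 0.07, adjusted p = 0.00459). Tra2a fell by 0.53 ± 0.13 (adjusted p = 0.0102) on its brightest probe set, the only 1 of 6 called. Luc7l3 fell by 0.39 ± 0.10 (adjusted p = 0.0172) and lost the call without baclofen 1 (0.0696) or baclofen 4 (0.0518). Tra2b fell by 0.26 ± 0.08 (adjusted p = 0.0347) and lost it without baclofen 1, 2 or 4 or vehicle 2 or 4 (0.0662 to 0.112). Srsf6 fell by 0.36 ± 0.09 on its brightest probe set (adjusted p = 0.0123; 0.0931 with only the 1-day arrays fitted), but of its 4 probe sets 2 rose and 1 fell. With the mean of its probe sets the difference was 0.127, in the other direction, and did not pass. The count of 5 was 3 without baclofen replicate 1 or 4.

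**Figure D3:**
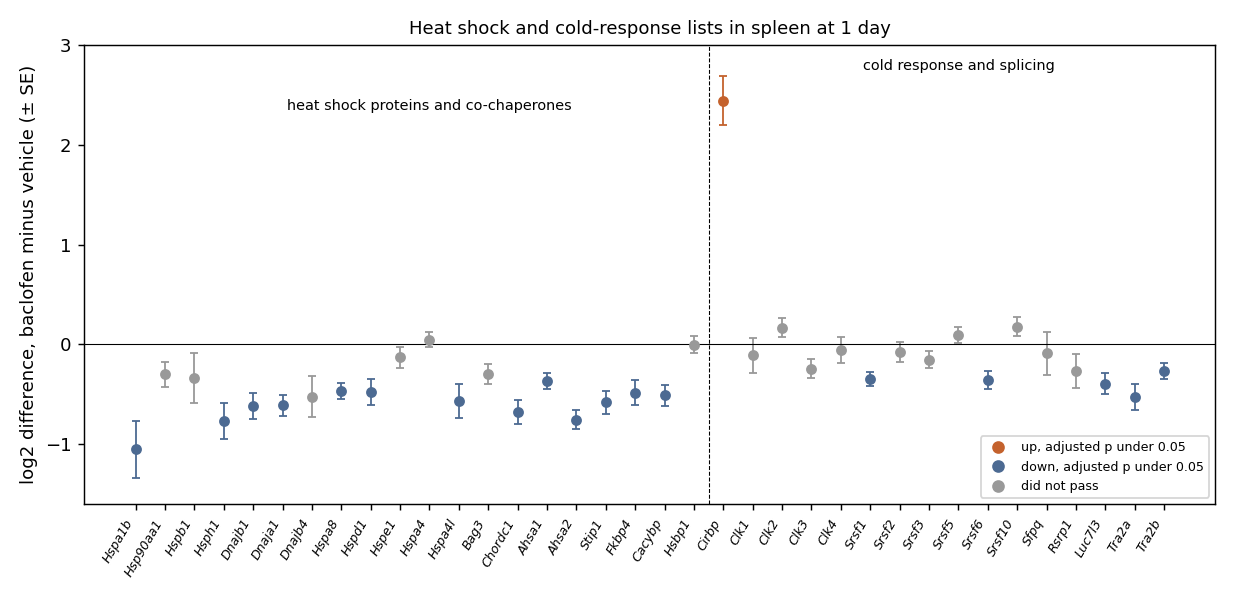
Log2 difference of baclofen minus vehicle with its standard error for the 20 heat shock genes (left of the dashed line) and the 16 cold-response and splicing genes (right). Orange marks a rise and blue a fall at an adjusted p under 0.05, and grey marks genes that did not pass. Cirbp stands at 2.44 while 13 heat shock genes lie below 0 in blue.

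Ddit4 and Pik3ip1 belong to a set of genes that tune growth signalling. Of 22 genes of PI3-kinase, FOXO and mTORC1 control, 4 rose (Ddit4, Pik3ip1, Sesn1 and Foxo1) and Irs1 fell, with a median of 0.022, while 7.64% of all genes rose and 7.91% fell. Sesn1, a sestrin that restrains mTORC1, was at 10.89, 11.25, 11.11 and 11.03 with vehicle and at 12.55, 12.42, 12.12 and 12.43 with baclofen (1.31 ± 0.16, adjusted p = 0.000141). All 4 of its probe sets rose. Foxo1, a transcription factor held back by PI3-kinase, rose by 0.65 ± 0.15 (adjusted p = 0.00769). Irs1, the insulin receptor substrate, fell by 0.92 ± 0.21 (adjusted p = 0.00806), with baclofen arrays at 6.86 to 7.43 and vehicle arrays at 7.63 to 8.58. Foxo1 lost its call with only the 1-day arrays fitted (0.0507) and Irs1 without vehicle replicates 1 and 3 together (0.114). No other member of the list was called. The count of falls was 2 without baclofen 2, baclofen 3 or vehicle 3.

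Of 21 alpha-arrestin and glucose genes, which shift fuel use, 5 rose and 2 fell, beside 7.64% and 7.91% of all genes. Txnip, an arrestin that blocks glucose uptake, was at 11.1, 11.3, 11.52 and 11.32 with vehicle and at 12.28, 12.02, 11.68 and 12.39 with baclofen (0.78 ± 0.13, adjusted p = 0.000721). Pdk1, another pyruvate dehydrogenase kinase, rose by 0.43 ± 0.09 (adjusted p = 0.00304). Arrdc3, an arrestin of the beta-adrenergic receptor, rose by 1.24 ± 0.32 (adjusted p = 0.0151), with baclofen replicate 3 at 9.09 inside the vehicle range of 8.6 to 9.47 and the others at 10.31 to 10.83. The glucose transporter Slc2a1 rose by 0.47 ± 0.15 (adjusted p = 0.0448). The glycolytic enzymes Hk2 and Pfkl fell by 0.52 ± 0.14 and 0.26 ± 0.07 on the log2 scale. Arrdc3 lost its call without baclofen 1 (0.0576) or baclofen 4 (0.0583). Slc2a1 lost it without any array but vehicle replicate 3 (0.0531 to 0.164), Hk2 without baclofen 1, baclofen 4 or vehicle 2 (0.0623 to 0.0763), and Pfkl without baclofen 4 (0.0599) or vehicle 1 (0.0667). The count of rises was 3 without baclofen replicate 1 or 4. That of falls was 1 without baclofen 1, vehicle 1 or vehicle 2, 0 without baclofen 4 and 4 without vehicle 3.

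Of 14 genes of the BCL2 family, 4 rose and 0 fell, beside 7.64% and 7.91% of all genes. Of the 4, 3 were BH3-only proteins, which promote cell death. Bmf was at 7.4, 7.59, 8.07 and 7.98 with vehicle and at 9.15, 8.99, 8.74 and 9.14 with baclofen (1.25 ± 0.16, adjusted p = 0.00021). Bbc3, which encodes PUMA, was at 7.87, 7.83, 7.41 and 7.52 with vehicle and at 8.68, 8.38, 8.42 and 8.24 with baclofen (0.77 ± 0.13, adjusted p = 0.00113). Bcl2l11, which encodes BIM, rose by 0.63 ± 0.12 (adjusted p = 0.00288). In each of these the baclofen arrays lay above the vehicle arrays, and the call held with any single array left out. Bcl2, which protects cells from death, rose as well, by 0.58 ± 0.16 (adjusted p = 0.0231), a call lost without baclofen 3 (0.0716) or vehicle 1 (0.0845). In the list of p53 targets Bbc3 rose and Tob1, an antiproliferative gene, fell by 0.56 ± 0.15 (adjusted p = 0.0174), the latter lost without baclofen 1 (0.0652), and 20 genes were tested. The share called was no higher than the 15.5% over all genes. Without vehicle replicate 3, 3 of these 20 rose, and without baclofen replicate 3, 2.

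Signalling genes of lymphocytes rose singly. Cd69, an early activation marker that also retains lymphocytes in tissue, was at 7.48, 7.78, 8.21 and 7.91 with vehicle and at 9.19, 8.98, 8.83 and 9.05 with baclofen (1.17 ± 0.17, adjusted p = 0.000302). Stat4, which carries interleukin 12 signals, was at 8.1, 8.33, 8.8 and 8.43 with vehicle and at 9.53, 9.13, 9.22 and 9.4 with baclofen (0.91 ± 0.15, adjusted p = 0.000748). Ctla4, an inhibitory receptor of T cells, was at 6.26, 6.44, 6.8 and 6.95 with vehicle and at 8.09, 7.56, 7.72 and 7.74 with baclofen (1.17 ± 0.16, adjusted p = 0.000274). The 4 baclofen arrays were above the 4 vehicle arrays for all of these, and no single array carried the call. Of 35 cytokines and cytokine receptors 6 rose and 3 fell, beside 7.64% and 7.91% of all genes. Among them Il15ra rose by 0.56 ± 0.09, Il1r1 by 0.34 ± 0.07 and Il10ra by 0.50 ± 0.13 (adjusted p = 0.000631, 0.00413 and 0.0142). Il10ra lost the call without baclofen 4 (0.053) or vehicle 1 (0.0548), and Il1r1 without vehicle replicates 1 and 3 together (0.0621). The counts of this list moved with single arrays: 3 rises without baclofen 4 or vehicle 1 and 12 without vehicle 3, and 0 falls without vehicle 1 and 1 without baclofen 1, baclofen 3 or vehicle 2.

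Of 19 NF-kB factors, inhibitors and targets, 5 rose and Il1b, described with the neutrophil genes, fell. Birc3, an inhibitor of apoptosis, was at 10.7, 11.16, 11.36 and 11.04 with vehicle and at 11.9, 11.81, 11.75 and 11.89 with baclofen (0.77 ± 0.12, adjusted p = 0.00061). Cd83, a surface marker of activated B and dendritic cells, rose by 0.53 ± 0.13 (adjusted p = 0.00874). Tnfaip3, which encodes the inhibitor A20, rose by 0.41 ± 0.12 (adjusted p = 0.0241) and Nfkbiz, an atypical inhibitor protein, by 0.38 ± 0.11 (adjusted p = 0.0295). Tnfaip3 lost its call without baclofen 1, baclofen 4 or vehicle 1 (0.061 to 0.0842) and Nfkbiz without baclofen 1, 3 or 4 or vehicle 1, 2 or 4 (0.0535 to 0.108). The list's median was 0.04, and its rises numbered 2 without baclofen 1, baclofen 4 or vehicle 1 and 3 without vehicle 2 or 4. Of 20 SOCS and STAT genes Stat4 and Pim3, a survival kinase (0.28 ± 0.06, adjusted p = 0.00298), rose, and Pim1 fell by 0.35 ± 0.11 (adjusted p = 0.0339). These 3 are a share like the 15.5% called over all genes. Pim3 lost the call with only the 1-day arrays fitted (0.0628). Pim1 lost the call without baclofen 1 or 3 or vehicle 1 or 2 (0.0728 to 0.122). The SOCS and STAT rises numbered 4 without vehicle 3, and the falls 3 without baclofen 3 and 2 without vehicle 4. Its median of 0.007 turned to -0.007 with arrays centred on their medians. None of 26 interferon response genes was called with limma (median -0.11, 6 at an unadjusted p under 0.05), but 4 fell without vehicle 3 and 1 without baclofen 2.

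The drug's own receptor was measured in part. Gabbr1 was at 8.2, 8.68, 8.95 and 8.42 with vehicle and at 8.79, 8.71, 8.75 and 8.73 with baclofen. The baclofen values sat inside the vehicle range, and the difference of 0.18 ± 0.11 did not pass (adjusted p = 0.266). Gabbr2 is named by no probe set of the annotation used and has no value here. Of 19 genes of the receptor and its effectors, 16 had a probe set, 6 were bright enough to test and 0 were called with limma (1 at an unadjusted p under 0.05). The largest differences among them were those of the inhibitory G protein subunit Gnai1 (-0.38 ± 0.15, adjusted p = 0.0963) and of Abat, which breaks down GABA (-0.23 ± 0.13, adjusted p = 0.231). Without vehicle replicate 3, 1 of the 6 rose.

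Transcripts of neutrophils and their precursors were lower after baclofen on average but varied between the vehicle arrays. The mean log2 level of 18 neutrophil genes was 10.14, 9.99, 8.75 and 9.44 in the vehicle arrays and 8.51, 8.48, 8.44 and 8.36 in the baclofen arrays. The groups did not overlap, and vehicle replicate 3 came closest to the baclofen arrays. Of 17 members tested 7 fell and 0 rose, with a median of -1.16. In bulk tissue, fewer cells of a type and less RNA per cell cannot be told apart. Il1b, the interleukin 1 beta gene, was at 9.02, 8.97, 8.84 and 8.33 with vehicle and at 7.5, 7.6, 7.34 and 7.89 with baclofen (-1.21 ± 0.32, adjusted p = 0.017). Mmp9, a granule metalloproteinase, was at 8.5, 8.03, 7.43 and 7.61 with vehicle and at 6.71, 7.17, 6.23 and 6.97 with baclofen (-1.13 ± 0.30, adjusted p = 0.0168). Both groups stayed apart for these genes, but both calls were lost without vehicle replicate 1 (0.0512 for Il1b and 0.0661 for Mmp9).

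Csf3r, the receptor for G-CSF, fell by 1.07 ± 0.31 on the log2 scale (adjusted p = 0.0261), and the call was lost without baclofen 1, baclofen 3, vehicle 1 or vehicle 2 (0.0537 to 0.0858). The precursor granule genes Mpo and Elane fell by 1.46 ± 0.48 and 1.24 ± 0.40 (adjusted p = 0.0459 and 0.0389). Mpo was at 10.79, 11.09, 9.33 and 10.37 with vehicle and at 8.77, 9.14, 9.46 and 8.37 with baclofen, so that vehicle replicate 3 fell inside the baclofen range. Both calls were lost without baclofen 1, 2 or 4 or vehicle 1, 2 or 4 (0.0662 to 0.133 for Mpo and 0.0567 to 0.12 for Elane). The same 6 arrays decided Ms4a3, a membrane protein of granulocyte precursors (-1.14 ± 0.37, adjusted p = 0.0412, and 0.072 to 0.136 without one of them). Cd177, a neutrophil surface protein, fell by 1.35 ± 0.45 (adjusted p = 0.0497) and lost the call without any array but vehicle 3 (0.0686 to 0.155). Cxcr2, the neutrophil chemokine receptor, fell by 0.73 ± 0.23 (adjusted p = 0.0385) and lost it without any baclofen array, vehicle 1 or vehicle 2 (0.0549 to 0.14). S100a8 and S100a9, the most abundant neutrophil proteins, differed by -0.93 ± 0.36 and -1.12 ± 0.42 and did not pass (adjusted p = 0.0839 and 0.0726). Over the list, 0 members fell without vehicle 1, 2 without baclofen 1, 3 without baclofen 2, baclofen 4 or vehicle 2, 4 without vehicle 4 and 16 without vehicle 3.

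A few monocyte genes fell. Of 13 tested, 4 fell and 0 rose, with a median of -0.155. The mean log2 level of the monocyte list was 9.97, 10.42, 9.87 and 9.84 with vehicle and 9.69, 9.57, 9.61 and 9.63 with baclofen. Vehicle replicate 2 was the highest, and the other vehicle arrays lay close above the baclofen arrays. Ms4a4c was at 9.77, 9.99, 9.89 and 9.93 with vehicle and at 9.27, 9.35, 9.57 and 9.24 with baclofen (-0.54 ± 0.11, adjusted p = 0.00419), and no single array decided its call. F13a1, the factor XIII subunit that monocytes carry, fell by 1.52 ± 0.46 (adjusted p = 0.0319), with vehicle replicate 2 highest at 10.82. Ccr2, the receptor that draws monocytes out of the marrow, fell by 1.04 ± 0.30 (adjusted p = 0.0238), and Fcgr1, the high-affinity IgG receptor, by 0.90 ± 0.25 (adjusted p = 0.0218). F13a1 lost the call without baclofen 1, 2 or 4 or vehicle 1 or 2 (0.0649 to 0.118), Ccr2 without baclofen 2, baclofen 4, vehicle 1 or vehicle 2 (0.0549 to 0.088) and Fcgr1 without baclofen 1, baclofen 3, vehicle 1 or vehicle 2 (0.0532 to 0.0767). Cd300lb, an activating receptor of myeloid cells, fell by 1.30 ± 0.36 (adjusted p = 0.0208) and lost the call without vehicle 1 (0.067) or vehicle 2 (0.0579). Its mean with baclofen, 6.22, was under the brightness minimum of 6.31, as were those of Ms4a3 (6.07) and of Pparg (5.91), described below, so the sizes of these 3 falls are uncertain. The count of 4 was 1 without vehicle 1 or 2 and 2 without baclofen 1, 2 or 4.

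Genes of erythroid and dividing cells spread widely among the vehicle arrays. None of 20 erythroid, 11 haem synthesis, 25 mitosis or 32 DNA replication genes was called with limma. Their medians were -0.62, -0.48, -0.64 and -0.43, and 1, 0, 4 and 0 were at an unadjusted p under 0.05. The mitosis level was 10.56, 9.93, 8.56 and 9.85 in the vehicle arrays and 8.76, 9.46, 9.17 and 8.98 in the baclofen arrays. As with the erythroid level, vehicle replicate 1 was highest and vehicle replicate 3 lowest, and the baclofen arrays lay inside that range. Klf1, the master factor of red cell development, was at 12.33, 11.71, 9.87 and 11.67 with vehicle and at 9.83, 10.83, 10.12 and 10.02 with baclofen (-1.20 ± 0.60, adjusted p = 0.173). Aurka, a mitotic kinase, showed the same order of arrays (-0.91 ± 0.42, adjusted p = 0.147). Without vehicle replicate 3, 18 mitosis, 16 replication and 2 erythroid genes fell. With the erythroid level in the fit as a covariate, 4 neutrophil and 5 monocyte genes fell, and with vehicle replicates 1 and 3 both left out, 1 and 2 did.

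**Figure D4:**
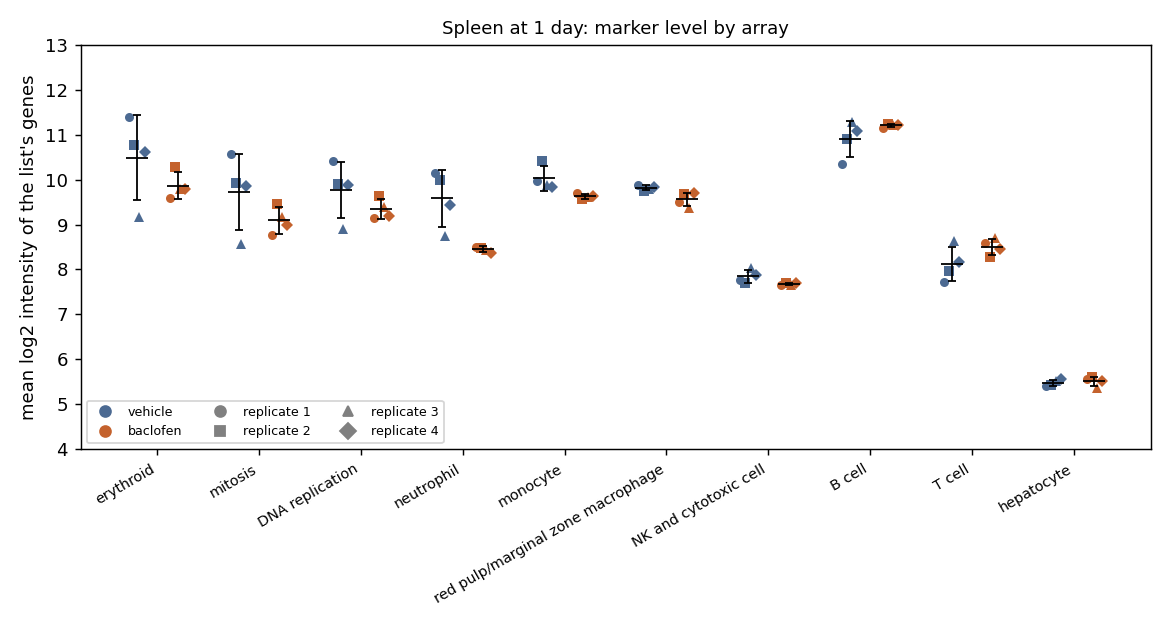
Mean log2 intensity of each marker list in the 8 arrays, 1 point per array with the replicate number as the marker shape. Black dashes and bars are the mean and SD of 4 arrays. Vehicle replicates 1 and 3 bracket the erythroid, mitosis and DNA replication levels, while the baclofen arrays are close together in most lists, as for neutrophils at 8.36 to 8.51.

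Lymphoid markers were higher on average after baclofen. The B cell level was 10.34, 10.91, 11.28 and 11.07 with vehicle and 11.15, 11.23, 11.21 and 11.22 with baclofen, and the T cell level was 7.73, 7.97, 8.63 and 8.17 against 8.59, 8.27, 8.7 and 8.45. In both lists vehicle replicate 1 was lowest. Vehicle replicate 3 lay above every baclofen array in the B cell list and inside the baclofen range in the T cell list. Of 22 B cell genes 6 rose and 1 fell (median 0.31), and of 19 T cell genes 3 rose and 0 fell (median 0.39). Fcrl1, a B cell coreceptor, rose by 0.68 ± 0.17 (adjusted p = 0.0114) and H2-DMb2, which loads peptides on class II molecules, by 0.60 ± 0.15 (adjusted p = 0.0135). Both calls were lost with only the 1-day arrays fitted (0.103 and 0.0693). Ebf1, a B lineage factor, rose by 0.59 ± 0.19 (adjusted p = 0.0413) and Bank1, a B cell scaffold, by 0.40 ± 0.13 (adjusted p = 0.0427). Ebf1 lost its call without any array but vehicle 3 (0.0513 to 0.152) and Bank1 without any but vehicle 3 or 4 (0.0543 to 0.156). Cd55, a complement inhibitor on many blood cells, fell by 0.48 ± 0.11 (adjusted p = 0.00733), a call lost with only the 1-day arrays fitted (0.0537). The T cell genes Cd28, a costimulatory receptor, and Lef1, a factor of naive T cells, rose by 0.66 ± 0.19 and 0.65 ± 0.20 (adjusted p = 0.025 and 0.0297). Cd28 lost its call without baclofen 1, 3 or 4 or vehicle 1 or 2 (0.0518 to 0.0942) and Lef1 without those or vehicle 4 (0.0607 to 0.101). Without vehicle replicate 3 the rises numbered 12 in the B cell list and 14 in the T cell list. They numbered 2 in the B cell list without any of the baclofen arrays or vehicle 1 or 2, and 1 in the T cell list without baclofen 1, 3 or 4 or vehicle 1 or 2. With the erythroid level as a covariate, 2 B cell and 3 T cell genes rose.

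Of 20 homing genes, Cxcr4 and Ccr6 rose and Ccr2 fell, a share like the 15.5% called over all genes, with a median of 0.128. Ccr6, a receptor on B and T cells, rose by 0.61 ± 0.17 (adjusted p = 0.0187) and lost the call without baclofen 1 (0.0545) or vehicle 1 (0.065), or with only the 1-day arrays fitted (0.0833). The rises numbered 7 without vehicle 3. The class II genes H2-Aa, H2-Eb1 and H2-Ab1, carried by B cells as well as dendritic cells, rose by 0.33 ± 0.08, 0.39 ± 0.11 and 0.43 ± 0.13 (adjusted p = 0.0133, 0.0221 and 0.0307). With Flt3, a growth factor receptor of dendritic cell precursors (0.50 ± 0.16, adjusted p = 0.0363), they made up the 4 rises among 15 dendritic cell genes. Zbtb46, a factor specific to conventional dendritic cells, fell by 0.55 ± 0.13 (adjusted p = 0.00831). H2-Aa and Zbtb46 kept their calls with any single array left out, but H2-Aa lost it with only the 1-day arrays fitted (0.0931) and Zbtb46 without vehicle replicates 1 and 3 together (0.0568). H2-Eb1 lost it without baclofen 1, baclofen 4, vehicle 1 or vehicle 2 (0.0518 to 0.0749), H2-Ab1 without those or baclofen 2 (0.053 to 0.0991) and Flt3 without any baclofen array, vehicle 1 or vehicle 4 (0.0564 to 0.129). The count of 4 was 1 without baclofen 1, baclofen 4 or vehicle 1 and 2 without vehicle 2.

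Several genes of natural killer cells fell. Of 16 tested, 5 fell and 0 rose, with a median of -0.15. Ncr1, the receptor NKp46, was at 7.84, 7.41, 7.79 and 7.81 with vehicle and at 6.95, 7.01, 6.69 and 6.85 with baclofen (-0.83 ± 0.13, adjusted p = 0.000721). Tbx21, which encodes T-bet, was at 7.55, 7.56, 8.12 and 7.7 with vehicle and at 7.01, 7.03, 7.38 and 6.78 with baclofen (-0.68 ± 0.16, adjusted p = 0.00731). The groups lay apart for both. The call of Tbx21 was lost without vehicle replicates 1 and 3 together (0.0522), and that of Ncr1 was not. Klre1, a killer cell lectin-like receptor, fell by 0.59 ± 0.16 (adjusted p = 0.0179). Gzma and Nkg7, genes of cytotoxic granules, fell by 0.57 ± 0.18 and 0.30 ± 0.09 (adjusted p = 0.0339 and 0.029). Klre1 lost its call without baclofen 1 (0.0698), Gzma without baclofen 1, 3 or 4 or vehicle 1 or 4 (0.0516 to 0.0929) and Nkg7 without baclofen 1, 2 or 4 or vehicle 3 or 4 (0.0548 to 0.0837). The falls numbered 2 without baclofen 1, 3 without baclofen 4 or vehicle 4, 5 with the erythroid level as a covariate and 1 with vehicle replicates 1 and 3 both left out.

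Of 21 macrophage genes of the red pulp and marginal zone, 4 fell and 0 rose (median -0.26). Spic, the transcription factor that red pulp macrophages need, was at 9.58, 9.43, 9.53 and 9.62 with vehicle and at 8.51, 9.01, 8.79 and 8.76 with baclofen (-0.77 ± 0.15, adjusted p = 0.00288). The vehicle arrays lay close together, unlike their erythroid levels. Slc40a1, the iron exporter ferroportin, fell by 0.44 ± 0.13, Pparg, a nuclear receptor, by 0.77 ± 0.24 and Treml4, a receptor of marginal zone macrophages and dendritic cells, by 0.65 ± 0.20 (adjusted p = 0.0307, 0.0339 and 0.0353). Spic kept its call with any single array left out. Slc40a1 lost it without baclofen 1, 2 or 3 or vehicle 1 (0.0502 to 0.102), Pparg without any baclofen array or vehicle 1 (0.0607 to 0.117) and Treml4 without baclofen 1, 3 or 4 or vehicle 1 or 4 (0.0582 to 0.107). The falls numbered 1 without baclofen 1, baclofen 3 or vehicle 1 and 2 without baclofen 2 or 4. Pecam1 was the only 1 of 17 endothelial genes called (0.40 ± 0.11, adjusted p = 0.0199), lost without baclofen 4, vehicle 1 or vehicle 2 (0.0573 to 0.0763).

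In several lists few genes or none were called. Of 21 genes of the unfolded protein and integrated stress responses only Herpud1, a protein of endoplasmic reticulum-associated degradation, was called, and it rose by 0.76 ± 0.19 (adjusted p = 0.0109). None of 21 cytosolic ribosomal protein genes was called with limma, with all arrays or with any 1 of the 8 left out (1 at an unadjusted p under 0.05, median 0.018). Of 27 ribosome biogenesis genes Nle1 rose by 0.25 ± 0.08 (adjusted p = 0.033), a call lost without baclofen 1, 2 or 3 or vehicle 3 or 4 (0.0543 to 0.104). Of 17 cholesterol genes Fdps, a synthetic enzyme, and Stard4, a carrier, fell by 0.54 ± 0.17 and 0.26 ± 0.07 (adjusted p = 0.0385 and 0.0205). Fdps lost its call without baclofen 1, 2 or 4 or vehicle 1, 2 or 4 (0.0538 to 0.113) and Stard4 without baclofen 1, baclofen 4, vehicle 1 or vehicle 4 (0.053 to 0.0717). Plasma cell (10 tested), megakaryocyte (14), stromal (21) and hepatocyte (6) genes had 0 calls with limma (0, 8, 5 and 0 at an unadjusted p under 0.05), though 12 megakaryocyte genes and 1 stromal gene fell, and 3 stromal genes rose, without vehicle replicate 3.

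After 5 daily doses, 484 genes (4.43%) were called in spleen, 333 higher (3.05%) and 151 lower (1.38%). Of the 1697 genes called at 1 day, 192 rose and 103 fell at both times and 0 moved in opposite directions, which is 17.4% of the calls at 1 day and 61% of those at 5 days. The change of the drug's difference from 1 to 5 days passed limma's test for 0 of 10916 genes, with 858 at an unadjusted p under 0.05. That count was 0 with each of the 20 spleen arrays left out and 33 with array weights. Hepatocyte genes were high on 3 of the 5-day arrays, with mean levels of 7.42 to 9.67, and without these the count was 0 as well. Values are therefore set side by side. Cirbp differed by 1.40 ± 0.21 at 5 days beside 2.44 at 1 day, and Ddit4 by 1.33 ± 0.27 beside 2.22. Errfi1, Pdk4 and Klf15 differed by 2.17 ± 0.24, 2.45 ± 0.31 and 1.28 ± 0.16 at 5 days, beside 2.13, 2.01 and 1.31 at 1 day. Klf9 differed by 1.25 ± 0.13 beside 0.74, and Arrdc3 by -0.04 ± 0.28 beside 1.24. Stat4 and Ctla4, called at 1 day, differed by 0.15 ± 0.13 and 0.37 ± 0.14 at 5 days and were not called then. Of the lists, 14 of 24 glucocorticoid genes rose and 11 of 20 heat shock genes fell at 5 days. None of 17 neutrophil, 22 B cell, 19 T cell or 16 natural killer genes was called then.

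In bone marrow after 1 dose, 584 of 10212 genes bright in both tissues were called (5.72%), 228 higher (2.23%) and 356 lower (3.49%). The fit of all 59 arrays used here called 2286 of these genes in spleen (22.4%), 841 higher (8.24%) and 1445 lower (14.2%). It takes the spread from all 12 groups and each gene's probe set brightest over all 59 arrays, so its spleen calls can differ from those above. For some genes that is another probe set, and the size in spleen changes too. Id4, Tardbp and Zbtb46 differed in spleen by only -0.574 ± 0.159, -0.389 ± 0.117 and -0.284 ± 0.105 here. Fam107a differed in spleen by only 1.253 ± 0.215 in the comparison with liver. Klf1, Aurka, Zbtb16 and S100a9 passed here (adjusted p = 0.0202, 0.0137, 0.012 and 0.00485, limma) but not in the spleen fit. Pim3, called in the spleen fit, did not pass here (0.163). Other genes called there also missed the threshold here, among them Gadd45g (adjusted p = 0.519, limma), H2-Aa (0.269), Bcl6 (0.257) and Il1r1 (0.21). The same held for Stard4 (0.157), Ier3 (0.118), Nfkbiz (0.108), H2-Ab1 (0.0866), Ebf1 (0.0782), H2-Eb1 (0.0743), Nkg7 (0.0674) and Pim1 (0.0547). Both tissues shared 113 rises and 145 falls, with 0 opposite, which is 11.3% of the spleen calls and 44.2% of the marrow calls. Cirbp rose by 2.41 ± 0.27, Ddit4 by 2.30 ± 0.37 and Per1 by 2.14 ± 0.28 in marrow, and none of these differences stood apart from spleen (adjusted p of the difference 0.979, 0.946 and 0.303). The effect of baclofen differed between spleen and marrow for 195 genes (1.91%), more positive in spleen for 100 (0.979%) and less for 95 (0.93%), with 2149 at an unadjusted p under 0.05. Cd69 rose in spleen and differed by -0.06 ± 0.13 in marrow, a difference of 1.23 ± 0.19 (adjusted p = 0.000102). Neto2, an auxiliary subunit of kainate receptors, rose in spleen by 1.04 ± 0.22 (adjusted p = 0.0887 without vehicle replicates 1 and 3 together) and differed by -0.21 ± 0.15 in marrow (adjusted p of the difference 0.000385). Stat4, Cxcr4 and Ptpn22 differed in marrow by 0.004 ± 0.12, 0.06 ± 0.10 and 0.44 ± 0.15, with adjusted p of the difference from spleen of 0.00282, 0.00438 and 0.00486. These 5 differences held with any of the 16 arrays left out.

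Fcrl1, Pde3b, Sesn1 and Dusp2 also rose more in spleen than in marrow, by 0.81 ± 0.18, 0.72 ± 0.17, 0.87 ± 0.20 and 1.01 ± 0.25 (adjusted p = 0.0109, 0.0153, 0.0153 and 0.0246). Each was lost without vehicle spleen replicate 1 (0.0585, 0.0863, 0.0838 and 0.123), that of Pde3b also without baclofen spleen 1 (0.0626) and that of Dusp2 without baclofen spleen 1 (0.0702) or 4 (0.0506). Sap30, a subunit of the Sin3 repressor, fell in spleen by 0.81 ± 0.16 and differed by 0.12 ± 0.12 in marrow (adjusted p of the difference 0.0017, held with any array left out). In Klf4 and Ifit1bl2 the difference came with a fall in marrow, by 0.83 ± 0.18 and 1.57 ± 0.14, while spleen differed by 0.47 ± 0.16 and -0.08 ± 0.07. The count of 195 was 4 with only the 1-day arrays of both tissues fitted. It was 26 without vehicle spleen replicate 1 and 1722 without vehicle spleen replicate 3. With any other single array left out it lay between 62 and 358.

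**Figure D5:**
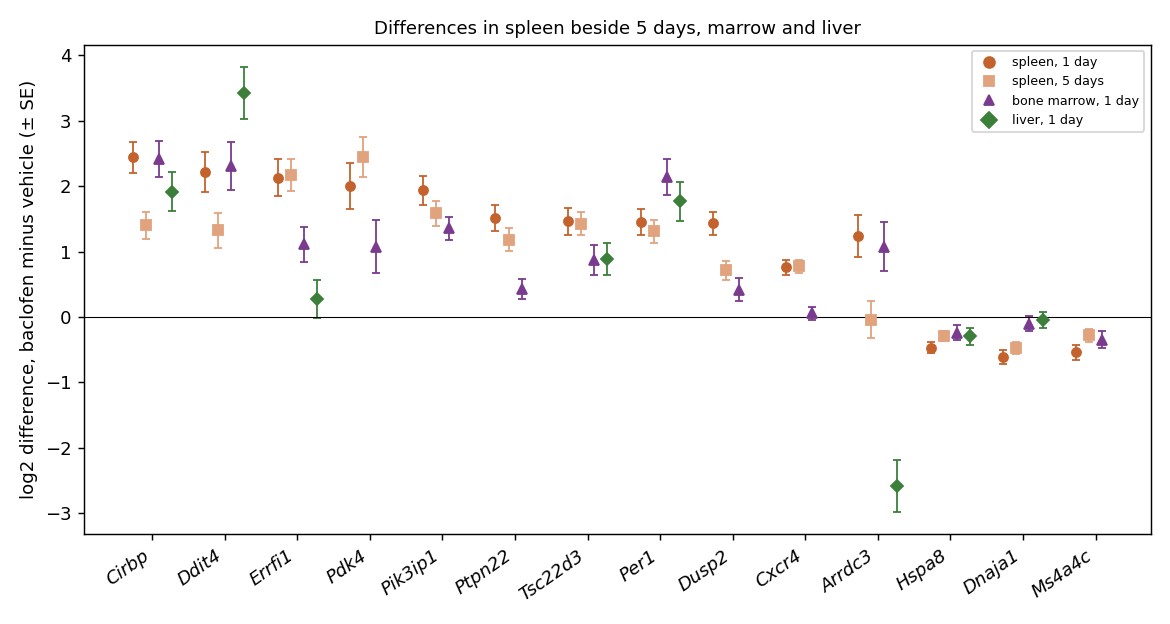
Log2 difference of baclofen minus vehicle with its standard error for 14 genes in spleen after 1 and 5 doses and in bone marrow and liver after 1 dose. A missing symbol is a gene under the brightness minimum in that tissue. Cirbp and Ddit4 lie above 1 in all 4 comparisons, Cxcr4 lies at 0.06 in marrow, and Arrdc3 is at 1.24 in spleen and -2.58 in liver.

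In liver after 1 dose, 536 of 9302 genes bright in both tissues were called (5.76%), 301 higher (3.24%) and 235 lower (2.53%). With spleen, 65 rises and 51 falls were shared, 5.95% of its 1949 calls in that set (21%) and 21.6% of those of liver. Another 17 genes were called in opposite directions. The effect differed for 607 genes (6.53%), more positive in spleen for 269 (2.89%) and less for 338 (3.63%). Arrdc3 rose in spleen and differed by -2.58 ± 0.40 in liver, a difference of 3.82 ± 0.55 (adjusted p = 3.24e-06). Errfi1 and Sesn1 rose in spleen and differed in liver by 0.27 ± 0.29 and -0.03 ± 0.15 (adjusted p of the difference 0.00219 and 1.9e-05). The metallothioneins Mt1 and Mt2, which bind zinc and copper, rose in liver by 2.74 ± 0.42 and 3.26 ± 0.54 and differed in spleen by -0.34 ± 0.34 and -0.47 ± 0.37 (adjusted p of the difference 0.000355 and 0.000797). Pim3 rose by 2.06 ± 0.16 in liver. In the spleen fit it rose by 0.28 ± 0.06, a rise that the fit of all 59 arrays did not call (adjusted p = 0.168, limma). These differences held with any of the 15 arrays left out. The count of 607 was 195 with only the 1-day arrays of both tissues fitted. It was 338 without vehicle spleen replicate 1, 387 without vehicle liver replicate 2 and 1235 without vehicle spleen replicate 3. Among 9002 genes bright in spleen, marrow and liver, 17 rose and 17 fell in all 3 tissues after 1 dose. The rises included Cirbp, Ddit4, Dusp1, Herpud1, Nfkbia, Per1 and Tsc22d3, and the falls included Luc7l3.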

How the data were processed

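The table the authors deposited holds 1 intensity per probe set and array on a linear scale (5.25 to 43115), and RMA and limma are named, without versions, in the submitters' processing notes. The labels give no genome build. Log2 was taken of these intensities here, with no further normalization. Of 45101 probe sets, 34945 carry 1 gene symbol. The brightest probe set stood for each gene, and genes under the 40th percentile of mean level were left out, so 10916 were tested. limma 3.58.1 (R 4.3.3) was fitted to 20 spleen arrays in 4 groups, with Benjamini-Hochberg adjustment and a threshold of 0.05. Spleen was compared with marrow and liver in 1 fit of 59 arrays, where the probe set brightest over all 59 stood for each gene. The fit was tested on simulated data.

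The arrays, the 45 gene lists and the tests were chosen with earlier results of these data known. Named genes are the 15 largest rises and falls, from every list at most 5 called members, taken by lowest adjusted p (or 2 by size where none was called), the GABA-B subunits and the 5 largest differences between tissues in each direction. Fkbp5, Sgk1, Nfkbia, Rhob, Anxa1, Bcl6, Nr3c1, Zbtb16, Slc2a1, Hk2, Tra2b, S100a8 and S100a9 were added after their values were seen. Some genes that the rule chose are not named in this text. Alternatives covered the brightness filter, probe sets, scaling, array weights, covariates, thresholds, the replicate block and each array left out. The small number of arrays limits the precision. Whether replicate numbers pair the arrays is not known. Vehicle and baclofen spleen arrays of the same number correlated at -0.21 to 0.1 in their deviations, but so few arrays cannot decide it.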

Additional observations from a re-analysis of the deposited data

Results flagged for a closer look

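In 7 named genes 1 array stood apart from the other 3 of its group. Fam107a stood at 5.3 in vehicle replicate 1 beside 7.19 to 7.27 in the others, Ncr1 at 7.41 in vehicle replicate 2 beside 7.79 to 7.84, and Abat at 6.78 in vehicle replicate 2 beside 7.14 to 7.2. Among the baclofen arrays, Vmn2r84 stood at 7.59 in replicate 3 beside 8.03 to 8.07, Id4 at 7.14 in replicate 1 beside 6.69 to 6.71, Dnaja1 at 10.4 in replicate 4 beside 10.53 to 10.54, and Gadd45g at 7.48 in replicate 3 beside 7.77 to 7.8. In all, 296 groups of 4 were checked, and chance alone sets about 5% of such groups apart.

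The effect of baclofen, on the log2 scale, differed between spleen and bone marrow by limma's test of the difference itself for 18 of the genes named in this text. Spleen minus marrow was positive for Ptpn22 (1.08), Dusp2 (1.01), Cxcr4 (0.70), Pde3b (0.72), Sesn1 (0.87), Stat4 (0.91), Fcrl1 (0.81), Cd69 (1.23), Neto2 (1.25), Klf4 (1.30), Ifit1bl2 (1.48) and Snai2 (1.20). It was negative for Ncr1 (-0.59), Ccn1 (-1.75), Slc39a8 (-1.29), Fcna (-1.07), Sap30 (-0.93) and Tmem107 (-0.90). Several of these were not stable: the test was lost in 12 of the 16 sets with 1 array left out for Ncr1, in 13 for Tmem107, in 11 for Slc39a8, in 8 for Ccn1, in 7 for Snai2 and in 4 for Fcna. Snai2 and Ccn1 differed mainly in marrow, by -1.07 and 1.52, and in spleen by 0.13 and -0.24.

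Between spleen and liver the effect differed for 30 of the genes named in this text. Spleen minus liver was positive for Errfi1 (1.86), Pex11a (0.90), Pde3b (0.83), Sesn1 (1.34), Arrdc3 (3.82), Birc3 (0.70), Il15ra (0.80), Il10ra (0.67), Klf7 (0.55), Bbc3 (0.76), Flt3 (0.58), Phlda1 (2.40), Hhex (2.27), Osgin1 (2.16) and Id2 (2.14). It was negative for Elane (-1.25), Csf3r (-1.15), Ahsa2 (-0.46), Dnaja1 (-0.57), Pim3 (-1.78), Tob1 (-0.90), Cd55 (-0.72), Pparg (-0.88), Sap30 (-0.74), Mt2 (-3.73), Noct (-3.35), Snhg3 (-3.11), Mt1 (-3.08), Gadd45g (-2.43) and Sgk1 (-1.25). Of the 15 sets with 1 array left out, the test was lost in 11 for Ahsa2, in 9 for Elane and Pparg, in 5 for Dnaja1, in 4 for Klf7, in 3 for Pex11a and Csf3r, in 2 for Cd55 and in 1 for Bbc3, Flt3 and Gadd45g. Some of the differences lay mainly in liver. Phlda1, Hhex, Osgin1 and Id2 differed in liver by -2.83, -2.58, -2.19 and -1.81 and in spleen by -0.43, -0.31, -0.03 and 0.34. Noct, Snhg3 and Gadd45g differed in liver by 2.51, 3.23 and 2.85 and in spleen by -0.85, 0.12 and 0.43.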

How the results depend on the processing

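The count of 1697 spleen genes was 3605 with all probe sets apart, 3651 with array weights, 601 at an adjusted p under 0.01, 285 at 1.5-fold or more and 676 with only the 1-day arrays, and it ranged from 952 to 3050 with 1 array left out. With vehicle replicates 1 and 3 both left out, a setting added after the data were seen, it was 919. The change from 1 to 5 days had 33 calls with array weights. The 195 differences from marrow were 4 with only the 1-day arrays and 26 at an adjusted p under 0.01, and ranged from 26 to 1722 with 1 array left out. The 607 differences from liver were 195 and 201 in those settings, and ranged from 338 to 1235. Srsf6 turned to 0.127 with the mean of its probe sets. With the replicate number as a block, the spleen fit left out 5-day baclofen replicates 5 to 8. Its counts were 871 for spleen and 0 for the change to 5 days. For marrow and liver a different block joined arrays of the same treatment, day and number across tissues, with all 59 arrays kept. The correlation within that block was 0.079 and 0.081, and the counts were 363 for marrow and 751 for liver. Of 121 called genes named in this text, some of them added outside the naming rule, the block in the spleen fit left 82 called. Herpud1 (0.068), H2-Aa (0.0626), H2-DMb2 (0.0602), Pim3 (0.0518) and Cd55 (0.0505) were among those that were not. Between vehicle and baclofen spleen arrays, 1 of 4 correlated best with its own number. With 4 arrays a group this cannot decide whether the numbers pair the arrays, and it does not cover pairs across tissues. The other filters, scalings and covariates kept each count within 1.5 times. Probe sets near the brightness minimum have little signal over background.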
